A study of Saccharomyces cerevisiae with 30 samples.

Results

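TAF5 (YBR198C), TAF6 (YGL112C), TAF9 (YMR236W), TAF10 (YDR167W) and TAF12 (YDR145W) encode the TBP-associated factors that Saccharomyces cerevisiae builds into both TFIID and SAGA. These 5 genes were taken by name from the 5547 genes measured on the arrays, and each was read by 1 spot. Their RNA was compared between strains on 30 two-channel arrays. Of these, 23 set a test strain against a reference strain and 7 held 1 reference strain in both channels. The values are log2 ratios without a level for either channel, so no gene's abundance can be set against another's.

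The strain names are the only description of the groups in the labels, and no genotype, allele or plasmid was assumed for any of them. YKH100, YKH101, YJS7, YJS8 and YJS9 were set against YJS6, and YKH104, YKH106, YKH107, YKH108 and YKH109 against YKH105. Test and reference cells alike were grown in CSM-Trp-His medium, a synthetic medium without tryptophan and histidine, at 26 °C. They were moved to 37 °C for 45 min before harvest, except in an eleventh group, where YJS8 and YJS6 stayed at 26 °C. Replicate 2 of YKH100 and replicate 2 of YJS8 have the same value at each of 6379 spots, and both were left out, so 21 arrays were fitted. In this repeated column GCN5, a SAGA gene, read -6.01 after centring, beside -4.96 on the other YKH100 array and 0.51 on the other YJS8 array at 37 °C. YKH100 and YJS8 at 37 °C then have 1 array each, YKH109 has 3 and the other 8 groups have 2. Errors and p-values for a group of 1 array rest on the spread within the other groups, on the assumption that the lone array varies like them. Nothing in the labels says that arrays of a strain came from separate cultures, so p-values measure the spread between arrays, which may be technical.

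TFIID binds core promoters and delivers TBP, the TATA-binding protein. SAGA is a coactivator that also handles TBP and carries a histone acetyltransferase and a histone deubiquitinase. The shared TAFs form a common core of both complexes, in which TAF5, a WD40-repeat protein, is the scaffold and the other members pair through histone folds. TAF6 pairs with TAF9 in both. TAF12 pairs with TAF4 in TFIID and with HFI1 in SAGA. TAF10 pairs with TAF3 or TAF8 in TFIID and with SPT7 in SAGA.

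An effect below is the log2 ratio after each array's median had been subtracted, averaged over the arrays of a group by limma with a term for the channel of the test strain. It is given ± its standard error, and a gene passed in a group at a Benjamini-Hochberg adjusted p under 0.05 over all genes tested there. The array median itself was far from 0. It ran from -1.23 to 0.60 over the fitted arrays, and its group means were -0.51 to -0.97 in YKH101, YJS8, YJS9, YKH107, YKH108 and YKH109 and -0.34 to 0.19 in the other 5 groups. On the self arrays, with 1 strain in both channels, it ran from -0.54 to 0.40 for YJS6 and from -0.15 to 0.67 for YKH105. An effect above 0 therefore means higher than the array's median gene, and whether that median gene itself differed between the strains cannot be told from these values. The labels also do not say which channel is the numerator. The ratio was read as test over reference, which is an assumption. With that reading GCN5, which encodes the SAGA acetyltransferase, lay at -4.97 in YKH100, -5.40 in YKH101, 2.48 in YJS7 and 3.21 in YJS9, and SPT3, a SAGA subunit that contacts TBP, at -8.33 in YKH104 and -8.23 in YKH107.

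On the median-centred scale, 9 of the 54 values of a member in a group passed as higher and 0 as lower. At an unadjusted limma p under 0.05 the counts were 10 and 0. TAF12 passed in 5 groups, TAF5 in 2, TAF9 and TAF10 in 1 each and TAF6 in 0. Over all genes, 11.7% of gene and group values passed as higher and 12.6% as lower. YKH107 held 4 of the 9 calls, and 23.5% of its genes passed as higher. YKH109 held 2, with 25.1% of all genes higher. YKH101, YKH108 and YJS8 each had 1 member higher, against 18.9%, 17.0% and 8.14% of all genes. No member passed in YJS9, YJS7, YKH104, YKH100, YKH106 or YJS8 at 26 °C, where 20.9%, 7.38%, 6.47%, 0.637%, 0.636% and 0.0182% of all genes were higher. None of the 9 was higher on the scale as deposited, and all 9 effects had a negative sign there.

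**Figure D1:**
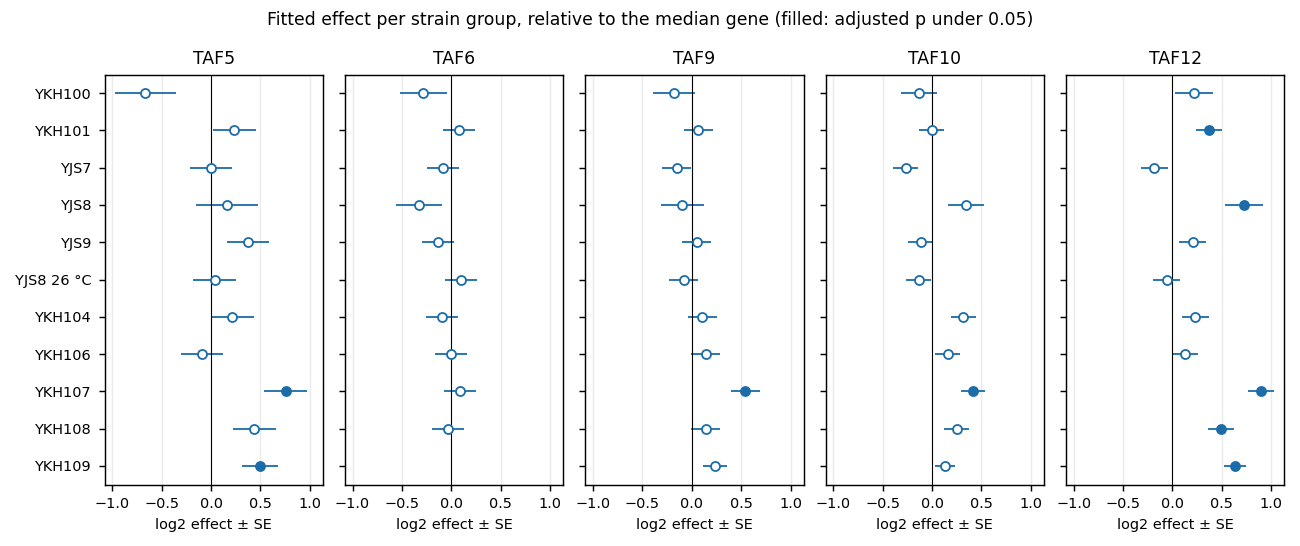
Effect of each member (log2 ratio relative to the array median, x axis) in the 11 strain groups (y axis), 1 panel per member, with standard errors as bars and filled points where the adjusted p was under 0.05. TAF12 passed in 5 groups and TAF6 in none. The 9 effects that passed turn negative when arrays are not centred.

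TAF12 was the member with the most calls. Its centred values were 0.89 and 0.91 on the 2 YKH107 arrays, with the test strain in channel 1 and in channel 2. They were 0.64, 0.61 and 0.63 on the 3 YKH109 arrays and 0.42 and 0.56 on the YKH108 arrays. All 7 lie above the YKH105 self arrays, on which TAF12 spanned -0.15 to 0.07. How many of all genes lie above their own self arrays in this way was not counted. Of all genes, 23.5% passed as higher in YKH107, 25.1% in YKH109 and 17.0% in YKH108. The TAF12 effect in YKH107 was 0.90 ± 0.13, a ratio of 1.86 relative to the median gene (limma, adjusted p = 0.000182, n = 2). It was 0.63 ± 0.11 in YKH109 (limma, adjusted p = 0.000502, n = 3) and 0.49 ± 0.13 in YKH108 (limma, adjusted p = 0.0130, n = 2). In YKH107, 8.74% of all genes had a higher effect than TAF12. The other strains set against YKH105 had smaller values, 0.20 and 0.27 in YKH104 and 0.02 and 0.23 in YKH106, and neither group passed. The YKH106 values overlap the self arrays and the YKH104 values do not. Without either YKH108 array, TAF12 in YKH108 no longer passed, at 0.59 and 0.39.

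Against YJS6 the TAF12 values were less even. The 1 YJS8 array at 37 °C stood at 0.74, the YKH101 arrays at 0.49 and 0.26, the YKH100 array at 0.24, the YJS9 arrays at 0.23 and 0.17 and the YJS7 arrays at -0.25 and -0.12. TAF12 passed in YJS8 (0.72 ± 0.19, limma, adjusted p = 0.0255, n = 1, with the spread taken from the other groups) and in YKH101 (0.37 ± 0.13, limma, adjusted p = 0.0446, n = 2). The 4 YJS6 self arrays spread from -0.54 to 0.47 for this gene, so only the YJS8 array and 1 YKH101 array lie outside them. YKH101 also fell to an adjusted p of 0.0792 when arrays of the 2 references were fitted apart (limma). It did not pass without either of its own arrays, at 0.27 and 0.48. At an unchanged 0.37, this call was lost too without any single array of YJS9, YKH104, YKH107 or YKH108, or YKH109 replicate 1 or 3. The same happened once YJS8 was given the repeated column, whether or not YKH100 also received it. YJS8 was 0.26 (limma, adjusted p = 0.448) with the repeated column counted as its replicate 2, although GCN5 in that column is far from its value on the other YJS8 array. With references fitted apart it was 0.64 (limma, adjusted p = 0.0895).

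**Figure D2:**
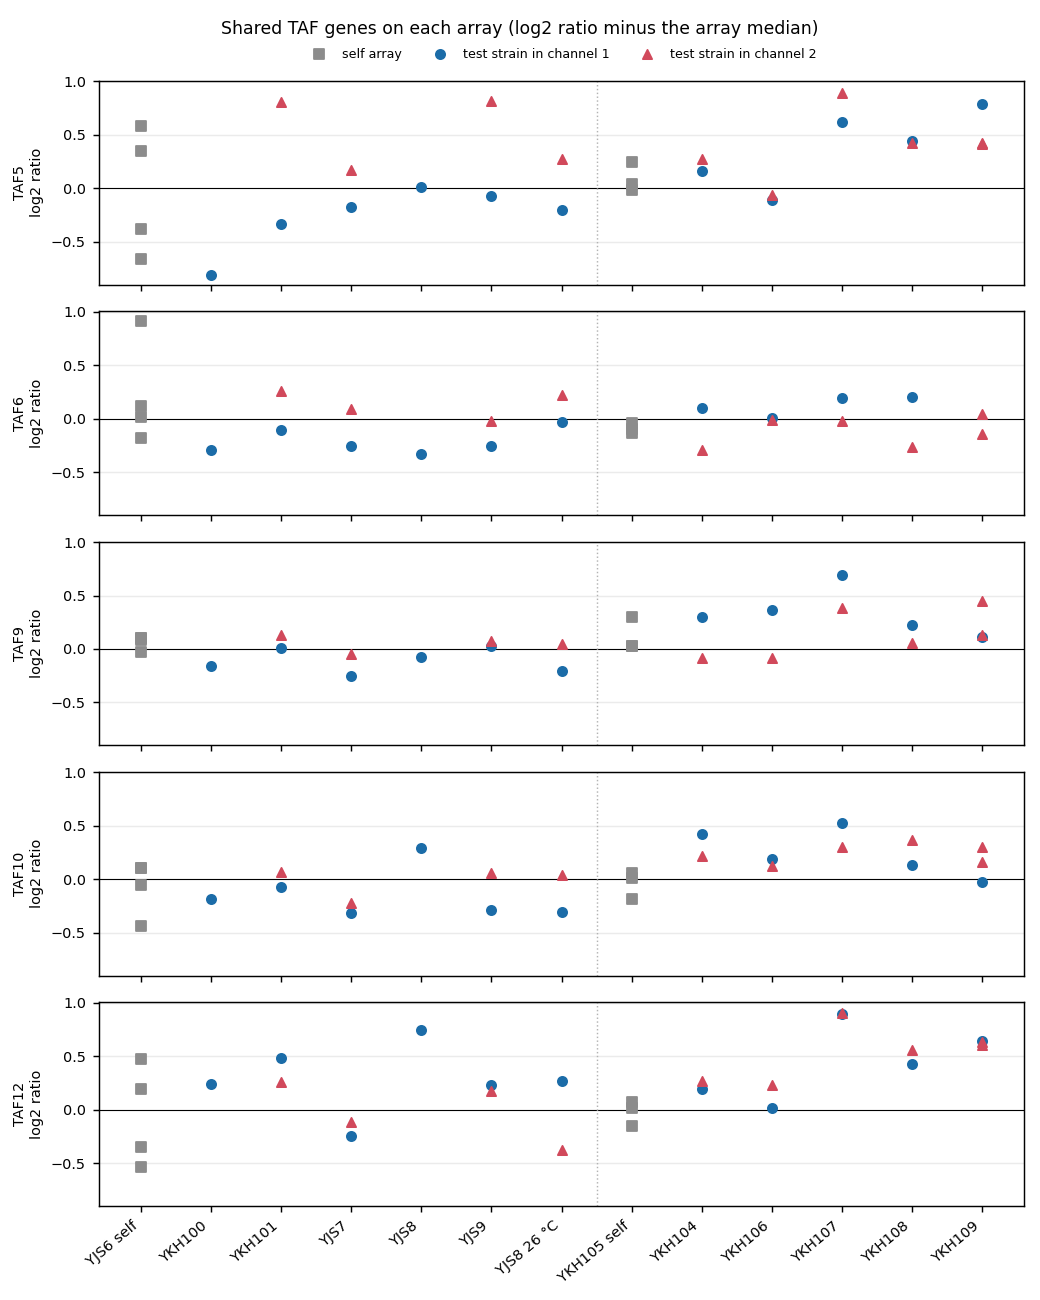
Centred log2 ratio of each member (y axis) on every fitted array and self array, by group (x axis), with the channel of the test strain marked by symbol. TAF5 on YJS6 arrays splits by channel. TAF12 on the YKH107, YKH108 and YKH109 arrays lies above the YKH105 self arrays, and how many of all genes do so was not counted. Without centring the TAF12 values of these groups lie around or below 0.

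Contrasts between strains were tested in the same fit. Among the 20 pairs of strains that share a reference and were harvested at 37 °C, TAF12 passed in 3, TAF5, TAF9 and TAF10 in 0 of 20 each, and TAF6 in 0 of 16. Over all genes, 10.7% of gene and pair values passed. At an unadjusted limma p under 0.05 the counts were 7 for TAF12, 3 for TAF5, 1 for TAF10 and 0 for TAF9 and TAF6. TAF12 was lower in YKH106 than in YKH107 by a log2 difference of -0.77 ± 0.19 (limma, adjusted p = 0.0106), a pair in which 26.3% of all genes passed. It was lower in YKH104 than in YKH107, at -0.67 ± 0.19 (limma, adjusted p = 0.0360, with 14.9% of all genes passing). It was lower in YJS7 than in YJS8, at -0.91 ± 0.24 (limma, adjusted p = 0.0460, with 5.81% of all genes passing), where the YJS8 side is 1 array whose spread is taken from the other groups. This call was lost without any single array of YKH101, YJS7, YJS9, YKH104, YKH106, YKH107 or YKH108 or YKH109 replicate 1 or 3 (limma, adjusted p of 0.0520 to 0.134) and with references fitted apart (0.112). With the repeated column as YJS8 the difference was -0.44, and with that column as YKH100 it had an adjusted p of 0.0504 (limma). GCN5 read -6.01 in the repeated column, far from the 0.51 of the other YJS8 array at 37 °C. YKH107 and YKH109 differed by 0.27 ± 0.17 (limma, adjusted p = 0.363), so these neighbours in the order were not separated. Leaving out either YKH107 array ended all 3 calls, leaving out either YKH104 array or YKH106 replicate 1 left 1 call, and as deposited the 3 differences had the opposite sign.

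TAF5, the scaffold, had the widest spread. On the 2 YKH107 arrays it stood at 0.62 and 0.89, on the 3 YKH109 arrays at 0.79, 0.42 and 0.42, and on the YKH108 arrays at 0.45 and 0.43. The YKH105 self arrays ran from -0.02 to 0.24, below all 7, and how many of all genes separate in this way was not counted. The effect was 0.75 ± 0.22 in YKH107 (limma, adjusted p = 0.0123, n = 2) and 0.50 ± 0.18 in YKH109 (limma, adjusted p = 0.0332, n = 3), with 12.9% and 20.5% of all genes higher. YKH108 gave 0.44 ± 0.22 (limma, adjusted p = 0.133, n = 2), and passed when the arrays of the references were fitted apart (limma, adjusted p = 0.0231). TAF5 in YKH107 was no longer past the threshold without either YKH107 array, and in YKH109 it was 0.22 without replicate 1. With the repeated column counted as YKH100 alone, TAF5 in YKH109 was 0.48 and did not pass.

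On arrays against YJS6, TAF5 split by channel. With the test strain in channel 1 it ran from -0.81 in YKH100 to 0.01 in YJS8, and with the test strain in channel 2 from 0.18 in YJS7 to 0.82 in YJS9. Every channel 1 value lay below every channel 2 value. With references fitted apart, the difference, channel 1 minus channel 2, was -0.72 on YJS6 arrays and 0.01 on YKH105 arrays. The fit behind the reported effects used 1 channel term for both references, which was -0.30 for TAF5 and lies between these values. For the 1 array of YKH100 the TAF5 effect was -0.66 in that fit and -0.46 with references fitted apart. With the repeated column, in which TAF5 read 0.43, counted as YKH100 alone, the TAF5 effect in YKH100 was -0.19. The YJS6 self arrays, which hold the same strain in both channels, spanned -0.66 to 0.58. TAF5 passed in 0 of the 6 groups against YJS6, and its 2 YKH101 values, -0.33 and 0.81, had opposite signs.

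TAF9, which pairs with TAF6, passed in YKH107, and TAF6 did not. TAF9 stood at 0.70 and 0.39 on the YKH107 arrays, above its YKH105 self range of 0.02 to 0.30. TAF6 stood at 0.19 and -0.02 there, and its self range was -0.13 to -0.04. The TAF9 effect was 0.54 ± 0.15 (limma, adjusted p = 0.00958, n = 2), with 21.1% of all genes higher, and the TAF6 effect 0.09 ± 0.16 (limma, adjusted p = 0.697, n = 2). The difference between these genes was not tested. Within the arrays TAF9 exceeded TAF6 by 0.50 and 0.41, close to the highest YKH105 self array at 0.40 (the lowest was 0.06) and to single arrays of YKH109 at 0.41, YKH106 at 0.36 and YKH108 at 0.32. Without YKH107 replicate 1 the TAF9 effect was 0.39 and did not pass.

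Elsewhere both stayed near the median gene. TAF9 effects ran from -0.18 in YKH100 to 0.24 in YKH109 over the other 10 groups. TAF6 effects ran from -0.33 in YJS8 to 0.09 in YJS8 at 26 °C over the 10 groups tested, and TAF6 was not tested in YKH109 because its channel 1 array had no value. One YJS6 self array read 0.92 for TAF6, beyond its range of -0.33 to 0.26 over 20 fitted arrays.

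TAF10 passed in YKH107, where its arrays read 0.53 and 0.30. The YKH105 self arrays gave -0.18 to 0.06. The effect was 0.42 ± 0.12 (limma, adjusted p = 0.0154, n = 2), and 26.7% of all genes were higher. The YKH104 arrays overlapped those of YKH107, at 0.42 and 0.21, with an effect of 0.32 ± 0.12 that did not pass (limma, adjusted p = 0.117, n = 2). TAF10 was 0.35 ± 0.18 on the YJS8 array at 37 °C (limma, adjusted p = 0.228) and lowest in YJS7, at -0.27 ± 0.12 (limma, adjusted p = 0.177). Without YKH107 replicate 1 its effect there was 0.23 and did not pass.

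Of the test strains only YJS8 was measured at both temperatures, each time against YJS6 kept at the same temperature. A difference between temperatures is thus a change in the ratio of YJS8 to YJS6, not the response of YJS8 to 37 °C. TAF12 read 0.74 at 37 °C and 0.26 and -0.38 at 26 °C. The difference of 37 °C minus 26 °C was 0.78 ± 0.24 (limma, adjusted p = 0.0691), above the threshold. It was 0.48 ± 0.22 for TAF10, -0.42 ± 0.28 for TAF6, 0.13 ± 0.38 for TAF5 and -0.01 ± 0.26 for TAF9. Of the 5 members 0 passed in limma, and TAF10 and TAF12 had an unadjusted p under 0.05, while 7.55% of all genes passed in either direction. Only 1 array stands on the 37 °C side. Without 26 °C replicate 1, the TAF12 difference passed at 1.16 (limma, adjusted p = 0.0144).

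The deposited ratios, before the median was subtracted, show what centring did to each member. TAF12 read -0.22 and 0.10 on the YKH107 arrays, whose medians were -1.11 and -0.81. On the YKH109 arrays it read -0.60, -0.03 and -0.12 beside medians of -1.23, -0.64 and -0.75. TAF12 was thus near or somewhat below 0 where the median gene was well below it. Over the 21 fitted arrays TAF12 ranged from -0.65 to 0.49 with an SD of 0.343, while the SDs of TAF5, TAF6, TAF9 and TAF10 were 0.547 to 0.604 and that of the array medians 0.536. The self arrays were mixed. The SD of TAF12 on the 4 YJS6 self arrays was 0.197 as deposited and 0.467 centred, and on the 3 YKH105 self arrays 0.306 as deposited and 0.118 centred.

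Tested as deposited, TAF12 was -0.06 in YKH107, -0.20 in YKH108, -0.27 in YKH109, -0.32 in YKH101 and -0.15 in YJS8. None of these passed. The one member past the threshold on that scale was TAF10 in YKH109, lower at -0.78 (limma, adjusted p = 0.0302). On that scale 18.2% of all gene and group values passed as lower and 0.889% as higher. With arrays made equal in distribution after centring, TAF12 in YKH107 passed at 0.62 (limma, adjusted p = 0.0499) and the other 8 effects kept their sign without passing.

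**Figure D3:**
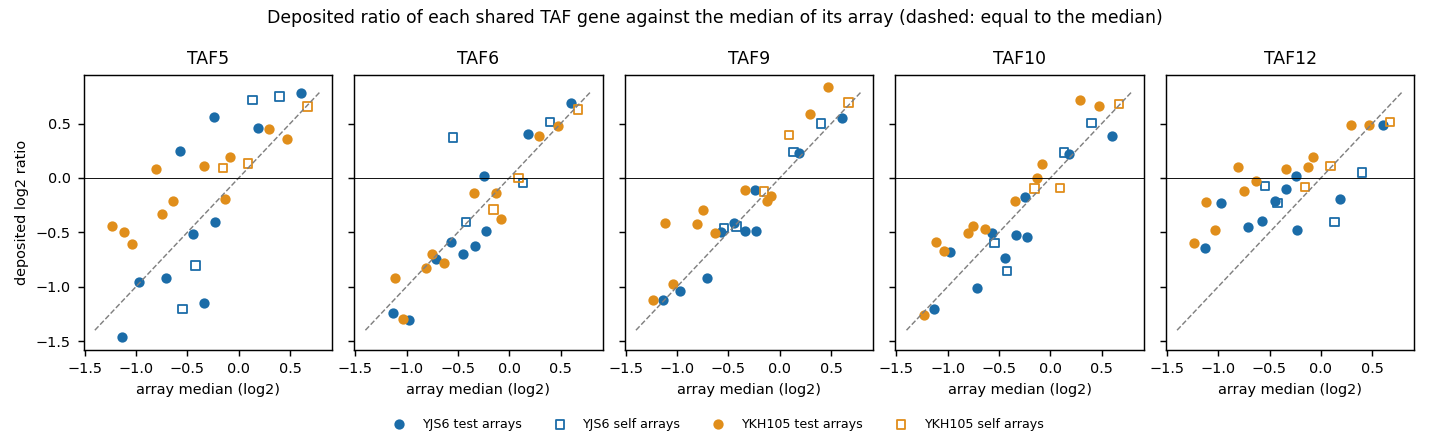
Deposited log2 ratio of each member (y axis) against the median of its array (x axis), 1 point per array, with a dashed line of equality, colours for the reference strain and open squares for self arrays. Points above the line are higher than the median gene. TAF12 stays between -0.65 and 0.49 on the fitted arrays while their medians reach -1.23, so its points leave the line at the left, above it but mostly below 0.

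The histone-fold partners of TAF12 moved apart. HFI1 (YPL254W), its SAGA partner, was lower in 6 of 11 groups, with effects of -0.67 ± 0.12 in YKH107 (limma, adjusted p = 0.000772, n = 2), -0.67 in YKH109, -0.72 in YKH108, -0.80 in YKH101, -0.69 in YJS8 and -0.99 in YJS9. These 6 include all 5 in which TAF12 was higher. They are also the 6 groups in which most genes passed as lower. Lower genes numbered 1368 of 5505 tested in YKH107, 1524 of 5491 in YKH109 and 1096 of 5502 in YKH108. They numbered 1122 of 5493 in YKH101, 425 of 5489 in YJS8 and 1254 of 5420 in YJS9. In the remaining groups 0 to 390 genes were lower. HFI1 was negative in all 6 on every scale tried, and as deposited it passed as lower in 5 of them, with an adjusted p of 0.0647 in YJS8 (limma). TAF4 (YMR005W), the TFIID partner, was higher in YKH107 (0.44 ± 0.10, limma, adjusted p = 0.00400, n = 2) and in YKH101 (0.30 ± 0.10, limma, adjusted p = 0.0405, n = 2), and negative in both as deposited.

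The difference between TAF12 and HFI1 on the same array does not depend on centring. It was 1.44 and 1.69 on the YKH107 arrays, 1.36 and 1.25 on the 2 YKH109 arrays with both values, and 1.09 and 1.33 on the YKH108 arrays. It was 1.18 and 1.17 in YKH101, 1.37 in YJS8 and 1.17 and 1.21 in YJS9. In the other groups it ran from -0.38 in YJS7 to 0.57 in YKH104. The self arrays gave -0.09 to 0.41 for YJS6 and -0.02 to 0.24 for YKH105. Thus the 11 arrays of the 6 groups do not overlap any other array. These groups are those in which HFI1 passed as lower, so part of the gap follows from that choice. In YJS9, where TAF12 did not pass, HFI1 read -0.94 and -1.04 and TAF12 0.23 and 0.17. How many other genes differ from HFI1 in this way was not counted. The comparison of TAF12 with HFI1 was chosen after the values were seen and carries no test. It shows unequal change of the pair, not which of them changed. TAF12 minus TAF4 was 0.32 and 0.59 on the YKH107 arrays and 0.44, 0.57 and 0.38 on the YKH109 arrays, all above the self arrays, which spanned -0.42 to 0.29. It was 0.50 in YJS8, 0.14 and 0.50 in YKH108 and -0.02 and 0.17 in YKH101, and the other groups ran from -0.57 in YJS7 to 0.30 in YJS9.

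TAF12 minus TAF6, taken the same way, was 0.70 and 0.93 in YKH107, 0.75 and 0.58 on the 2 YKH109 arrays with both values and 1.08 on the YJS8 array. The YKH105 self arrays gave -0.11 to 0.21 and the YJS6 self arrays -0.46 to 0.18. YKH108 was split, at 0.22 and 0.82, as were YKH104, at 0.10 and 0.56, and YKH101, at 0.59 and -0.0044. Groups in which TAF12 did not pass also lay above the YJS6 self arrays, with YKH100 at 0.53 and YJS9 at 0.49 and 0.19.

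The TFIID partners of TAF10 passed in more groups on the centred scale than TAF10 itself, which passed in 1. TAF8 (YML114C) passed in 6 groups, up to 0.91 ± 0.11 in YKH107 (limma, adjusted p = 3.63e-05, n = 2). TAF3 (YPL011C) passed in 4, up to 1.06 ± 0.14 in YKH107 (limma, adjusted p = 8.11e-05, n = 2). Of all genes, 7.38% were higher in YJS7, where TAF8 passed. In the other groups in which TAF8 or TAF3 passed, 17.0% to 25.1% were higher. SPT7 (YBR081C), the SAGA partner, passed in YKH101, at 1.63 ± 0.41 (limma, adjusted p = 0.00807, n = 2). As deposited, TAF3 in YKH107 was 0.10, TAF8 in YKH107 -0.05 and SPT7 in YKH101 0.94, and none of the 3 passed. On that scale 4 of the 6 TAF8 calls and 3 of the 4 TAF3 calls turned sign.

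The rest of the complexes and the basal factors were read from lists of subunits. Over all genes the shares were 11.7% higher and 12.6% lower. Of TFIID subunits outside SAGA, 22 of 99 gene and group values were higher (22.2%) and 3 lower (3.03%). Of SAGA subunits outside TFIID, 11 of 143 were higher (7.69%) and 22 lower (15.4%), GCN5 and SPT3 included. TBP and basal factors had 12 higher (13.6%) and 1 lower (1.14%) of 88. The core histones had 5 higher (5.68%) and 10 lower (11.4%) of 88. The SAGA and histone shares that were lower are thus near that of all genes. As deposited, higher calls numbered 0 for TFIID, 2 for SAGA, 0 for basal factors and 0 for histones. Lower calls there were 9 of 99, 33 of 143, 8 of 88 and 13 of 88. Of all gene and group values on that scale, 0.889% were higher and 18.2% lower. The shared TAFs, with 9 higher and 0 lower of 54 centred, had 0 higher and 1 lower.

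In YKH107, the group with most members higher, the median centred effect was 0.54 for the shared TAFs, 0.44 for the TFIID list, -0.16 for the SAGA list, 0.46 for the basal factors and 0.00 for all genes tested. The highest TFIID gene was TAF11, whose product pairs with TAF13 in TFIID, at 1.43 ± 0.13 (limma, adjusted p = 4.04e-06, n = 2). The highest of the SAGA list was SPT20, which helps hold SAGA together, at 1.05 ± 0.13 (limma, adjusted p = 4.38e-05, n = 2). Of the 13 genes of that list tested, 2 were higher and 5 lower, with SPT3 lowest at -8.23. Among all 5505 genes tested there, 23.5% were higher and 1368 genes lower. TFA1, the large subunit of TFIIE, stood at 1.06 ± 0.11 (limma, adjusted p = 2.07e-05, n = 2). As deposited TAF11, SPT20 and TFA1 were 0.47, 0.09 and 0.10 and did not pass, and the shared TAFs' median there was -0.42. TAF13 was lower in YJS9 (-0.72) and YKH101 (-0.35), and it passed as lower on the deposited scale in both.

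**Figure D4:**
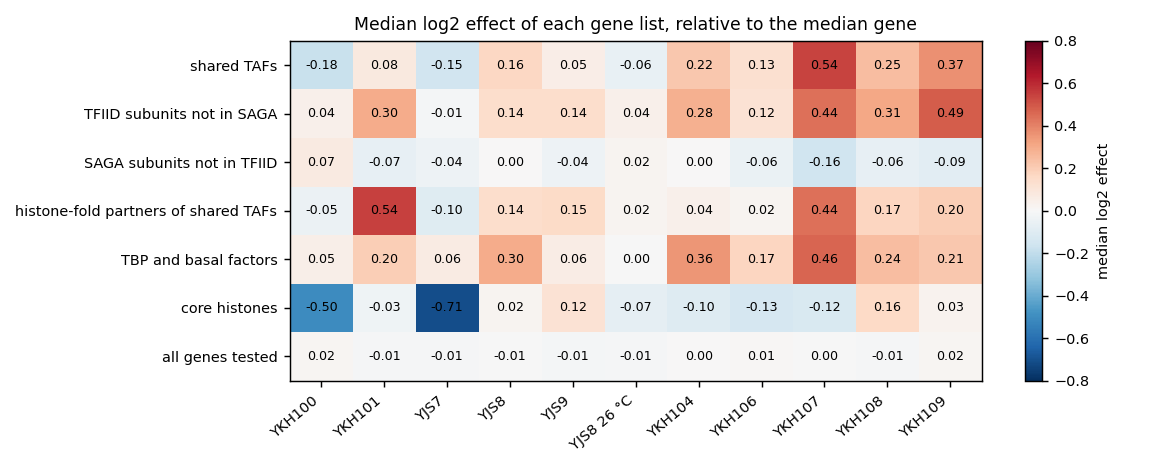
Median centred effect (log2) of each gene list (rows) in the 11 groups (columns), with the median of all genes tested as a further row. The shared TAFs have their highest median, 0.54, in YKH107, where the SAGA list is at -0.16. Without centring the shared TAFs' median in YKH107 is -0.42.

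Genes next to the members in the R64 gene table shared some of their calls. For 5 of the 9 member calls at least 1 neighbour was also higher in that group, and 8 of the 18 neighbour values in question were higher. In these groups 8.14% to 25.1% of all genes were higher, and no test was made of the neighbours' share. TAF12 lies between MKC7, an aspartyl protease of the cell surface, and SWI5, a cell-cycle transcription factor. MKC7 was higher in YKH101 (1.12), YKH108 (1.09) and YKH109 (0.67), but stood at -0.31 in YKH107, where TAF12 was highest. SWI5 was higher in YKH101 (0.71), YJS9 (0.52), YKH107 (0.80) and YKH109 (0.53). The neighbours of TAF10 are SEC5, of the exocyst, and CDC37, a co-chaperone of protein kinases. Both passed in YKH107, at 0.60 and 0.49, and in 2 further groups each. The neighbours of TAF9, RNA1 and BCH1, did not pass in YKH107. RNA1, the activator of the Ran GTPase, was higher in YKH109 (1.10), and BCH1 lower in YJS9 (-0.44). Of the neighbours of TAF5, YBR197C passed in 0 groups and KTR4, a mannosyltransferase, in YJS7 (2.43), while SLD3 and NSA1 beside TAF6 passed in 0. As deposited, 2 of the 3 calls of SEC5 and of CDC37 turned sign, with SEC5 at -0.36 and CDC37 at -0.47 in YKH107. So did 2 of the 4 SWI5 calls and 1 of the 3 MKC7 calls. For RNA1, BCH1 and KTR4 the number was 0.

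Across the 11 groups the members were only partly alike. The Pearson correlation of group effects was 0.79 for TAF10 and TAF12, 0.78 for TAF5 and TAF9, 0.66 for TAF9 with TAF10 and with TAF12, and 0.60 and 0.54 for TAF5 with TAF12 and TAF10. TAF6, over 10 groups, gave 0.56 with TAF9, 0.48 with TAF5, 0.02 with TAF10 and -0.08 with TAF12. These are descriptions, since the groups share reference strains and all values of a group share arrays. They are for centred effects, and the subtracted array medians are common to all genes. Correlations as deposited, and the usual correlation between any pair of genes, are not given here.

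On the same centred scale, the closest profiles among genes tested in the same groups belonged to other genes. For TAF12 they were ROY1 (0.99), PZF1, the factor TFIIIA (0.98), and TCO89, a subunit of the TOR kinase complex (0.96). For TAF5 they were LDB17 (0.95), MRPL16, a mitochondrial ribosomal protein (0.94), and MUM2 (0.93). For TAF9 they were UME6, a repressor of meiotic genes (0.94), UBS1 (0.94) and MTF1, a mitochondrial transcription factor (0.93). For TAF10 they were BET3, of the TRAPP vesicle-tethering complex (0.95), SER2, of serine synthesis (0.94), and BDP1, a subunit of TFIIIB (0.93). For TAF6, over 10 groups, they were SPT7 (0.82), COQ2, of ubiquinone synthesis (0.82), and PRS2 (0.78). These genes were picked as the highest of all genes compared, so high values follow from the choice.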

How the data were processed

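RNA of test and reference strains was co-hybridized to 2-colour arrays, which were scanned with a GenePix 4000A and read with GenePix Pro 4.0, per the labels. The deposited values are log2 ratios made by the authors, 1 per spot and array, and how they were normalized is not stated in the labels. No intensity was analysed here, so signal over background is unknown, and the number of arrays limits the precision. Each array had a value at 5955 to 6388 of 6400 spots. Of these spots 5578 carry 1 gene and 822 none, 5573 names matched the R64 gene table, and spots of a gene were averaged.

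Arrays were centred on their median and fitted with limma 3.58.1 in R 4.3.3, with 11 group terms and a gene-wise channel term (9 residual and 2.87 prior degrees of freedom). Testing required a value in each orientation of the group and on at least 18 arrays (5519 genes). The fit was tested on simulated data. The repeated columns were left out. The 7 self arrays gave the background and were not fitted.

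The members and the gene lists were chosen with earlier results of these data known. Named genes are the members, their neighbours on the chromosome, their histone-fold partners, the highest and lowest past the threshold of each list in a group (a selection is printed), the 3 closest profiles per member, and GCN5 and SPT3. The 10 alternatives fixed and 1 added, equal distributions after centring, chosen after seeing the data, are given in the closing section. No sequence or promoter motif was analysed here.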

Additional observations from a re-analysis of the deposited data

Results flagged for a closer look

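TAF12 differed between 3 pairs of strains with the same reference (contrasts in limma): YJS7 minus YJS8 was -0.91, YKH104 minus YKH107 was -0.67 and YKH106 minus YKH107 was -0.77 on the centred log2 scale. TAF9 on the 4 YJS6 self arrays had 1 array apart from the others, at -0.03 with the highest at 0.10, and the ratio of that gap to the range was 0.837, above Dixon's critical value for 4 samples. Chance gives such a value in about 1 of 20 groups. In the repeated column, which was left out of the reported effects and used only in alternatives, TAF9 read -0.16, below its range on the YJS6 self arrays.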

How the results depend on the processing

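No paired analysis was possible because replicate numbers only name arrays and mark no shared culture or day. Of 1906 repeats of a result under an alternative, 1742 kept their direction and side of the threshold, 67 that passed neither way changed sign, 77 lost the threshold, 5 gained it and 15 reversed with at least 1 of the 2 values passing. As deposited the higher calls numbered 0 and the lower calls 1. Effects as deposited were -0.21 for TAF5 in YKH107, -0.41 for TAF5 in YKH109, -0.42 for TAF9 in YKH107, -0.54 for TAF10 in YKH107, -0.78 for TAF10 in YKH109, and for TAF12 -0.32 in YKH101, -0.15 in YJS8, -0.061 in YKH107, -0.20 in YKH108 and -0.27 in YKH109. TAF12 differences as deposited were 0.16 for YJS7 minus YJS8, 0.40 for YKH104 minus YKH107 and 0.36 for YKH106 minus YKH107. Quantile normalization of deposited ratios leaves a common median of -0.28 on every array, and gave 0 higher and 3 lower calls. The lower calls were TAF5 in YKH100 (-1.14, 1 array), TAF10 in YJS7 (-0.55) and TAF10 in YJS8 at 26 °C (-0.53). TAF10 in YKH107, at -0.020, and TAF12 in YKH101, at -0.0083, turned sign there without passing. After centring it gave 1 higher call. Calls over pairs of strains numbered 0 as deposited, 0 under quantile normalization on either scale, 1 with the repeated column under both strains, 1 with it as YJS8 alone and 7 with references fitted apart. Leaving out each array in turn gave 5 to 9 higher calls, 0 to 5 calls over pairs (0 without either YKH107 array, 1 without either YKH104 array or YKH106 replicate 1, 5 without either YJS8 26 °C array) and 0 to 1 between the temperatures of YJS8. TAF12 in YKH107 and YKH109 passed without each array in turn. Apart from scale, the cause of these changes was not tested.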
